A study of Saccharomyces cerevisiae with 48 samples.

Results

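The small subunit (SSU) processome genes of budding yeast are 51 ORFs listed by name for the proteins that assemble the small ribosomal subunit on its nascent rRNA. Read counts were given for 50 of them, out of 3301 counted ORFs in all. NOC4, the partner of NOP14, had no counts and is described from a table of pooled mRNA. Diploid cells of the laboratory strain BY4743 grew in rich medium with dextrose at 30 °C, and newborn unbudded G1 cells were separated from the culture by elutriation, a sorting of cells by sedimentation. Each fraction then grew on in culture and was harvested at 40, 45, 50, 55, 60, 65, 70 and 75 fl, from birth to the end of the cell cycle. Each of the 3 replicates of a size, A, B and C, was a pool of elutriated cells of that size, because a single fraction held too few cells. Every pool gave 1 library of ribosome footprints, the fragments that ribosomes protect from nuclease, and 1 library of poly(A) mRNA, so that there were 24 libraries per assay. Size and position in the cell cycle advance together in this design and cannot be told apart.

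The SSU processome is a very large ribonucleoprotein that forms on the 5' part of the pre-rRNA while RNA polymerase I still transcribes it. The complexes UtpA and UtpB bind early, the U3 small nucleolar RNP pairs with the pre-rRNA, and the Mpp10 complex, the GTPase Bms1, RNA helicases and other factors then fold and cleave the transcript on the way to 18S rRNA. In yeast the genes for ribosome assembly are known as a large co-regulated group, the Ribi regulon, that follows growth rate and nutrients. Several of the 50 counted proteins also act elsewhere. Nop1, Nop56, Nop58 and Snu13 sit in every box C/D snoRNP, Snu13 also binds the U4 snRNA of the spliceosome, and Rrp5 is needed for both ribosomal subunits.

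The mRNA libraries held 248840 to 5797532 counted reads and the footprint libraries 26360 to 5659096, and 6 footprint libraries of replicates B and C held fewer than 150000. Footprint libraries labelled replicate A, above all those of the smallest and largest sizes, ran against their size labels. Across all counted genes, the footprint profile of the 40 fl library of replicate A, each gene relative to its own mean, had a correlation of 0.50 with the mean mRNA profile of 70 fl and of -0.45 with that of 40 fl. Its 75 fl library had -0.47 with 70 fl and 0.58 with 40 fl. With 40 fl mRNA, the 75 fl libraries of B and C had -0.46 and -0.36 and their 40 fl libraries 0.51 and 0.53. With mRNA of their own size, the A libraries had -0.45, -0.62, -0.29, 0.08, 0.24, 0.24, -0.20 and -0.23 from 40 to 75 fl. The positive values of 55, 60 and 65 fl cannot show whether these libraries follow their labels, since other sizes gave similar or higher values. The 55 fl library had 0.41 with 60 fl mRNA, and the 65 fl library had 0.23 with 50 fl mRNA. These values are descriptions across genes of the same libraries. Footprints of the histone gene HTA2, a marker of S phase, gave 38.2 CPM at 75 fl and 708 CPM at 40 fl in replicate A. In B they gave 341 CPM at 75 fl and 34.6 CPM at 40 fl, and in C 465 and 44 CPM. CPM are counts brought to a common library total, with TMM scaling factors. In mRNA HTA2 was higher at 60 fl than at 40 fl in all 3 replicates, with 2310, 1503 and 2159 CPM at 60 fl and 201, 60.3 and 58.3 CPM at 40 fl in A, B and C. The cause was not tested. Footprint calls and slopes of the members are given below with and without replicate A, and levels per length only without it. In 3 of the footprint libraries (replicates A and C of 60 fl, replicate A of 70 fl) more than 5% of the reads came from FAR11 alone.

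SSU processome mRNA was highest in small cells. Of the 50 counted genes 38 fell along size and 0 rose, where 22.1% of all counted genes fell and 19.4% rose (edgeR's quasi-likelihood test of a slope, Benjamini-Hochberg adjusted p under 0.05 over all 3301 genes). All 50 slopes were negative. Their median was -0.14 log2 per 5 fl, with a range of -0.41 (DIM1) to -0.02 (UTP6), and the median over all counted genes was -0.0031. Levels are shares of the counted reads, and in such pools a lower level in each cell and fewer expressing cells cannot be told apart. Together the 50 genes took 3.17, 3.76 and 3.90% of the mRNA reads at 40 fl in A, B and C, 2.39, 4.13 and 3.50% at 45 fl, and 1.03, 1.71 and 1.90% at 70 fl. The lowest of the 6 shares at 40 and 45 fl lay above the highest of the 3 shares at 70 fl, a size picked as the lowest in these data. Other sizes did overlap. At 50 fl the shares were 1.18, 2.36 and 4.11%, and that of C lay above those of C at 40 and 45 fl. At 75 fl they were 2.22, 1.96 and 1.84%.

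The course along size was shared and not straight. The mean log2 level was highest at 45 fl in 37 of the 50 genes and at 40 fl in the other 13, and it was lowest at 70 fl in 41, at 60 fl in 4, at 65 fl in 4 and at 75 fl in 1. An F-test across the 8 sizes called 21 of the 50 (31 at an unadjusted p under 0.05), beside 25.9% of all counted genes (1300 of 3301 unadjusted). This count moved with single libraries, to 9 without 45 fl replicate B (23.5% of all counted genes) and 34 without 50 fl replicate A (28.1%), and it was 4 without replicate B (6.69%) and 4 without C (3.33%). Between neighbouring sizes 0 members passed in any of the 7 steps by edgeR's quasi-likelihood test, by DESeq2 or by limma-voom. At an unadjusted p under 0.05 edgeR gave 1, 4, 0, 0, 0, 0 and 3 members from the 45 minus 40 fl step to the 75 minus 70 fl step. Of the 3301 counted genes 283, 254, 130, 155, 173, 172 and 181 had such a p in these steps. The share of all counted genes called after adjustment was 0.0303% in the first of these steps, 0.0303% in the second and 0% in the other 5. The median steps were 0.14 log2 for 45 minus 40 fl, -0.45 for 50 minus 45, -0.39 for 55 minus 50, -0.16 for 60 minus 55, -0.15 for 65 minus 60, -0.19 for 70 minus 65 and 0.49 for 75 minus 70 fl. The standard error of a single gene's step had a median of 0.37 to 0.38. In the 50 minus 45 fl step UTP8 and DIM1 had -1.04 (SE 0.33) and -1.07 (SE 0.35), and in both genes all 3 libraries of 50 fl lay below all 3 of 45 fl, but neither passed over all genes (adjusted p 0.447 and 0.448, edgeR's quasi-likelihood test). In the 50 minus 45 fl step all 50 estimates were negative, and in the 75 minus 70 fl step 48 of 50 were positive. These counts of signs are descriptions, since the genes share the same libraries and are not replicates. The replicates did not all go the same way. The share of mRNA reads taken by the 50 genes at 45 and 50 fl was 2.39 and 1.18% in A and 4.13 and 2.36% in B, but 3.50 and 4.11% in C.

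**Figure D1:**
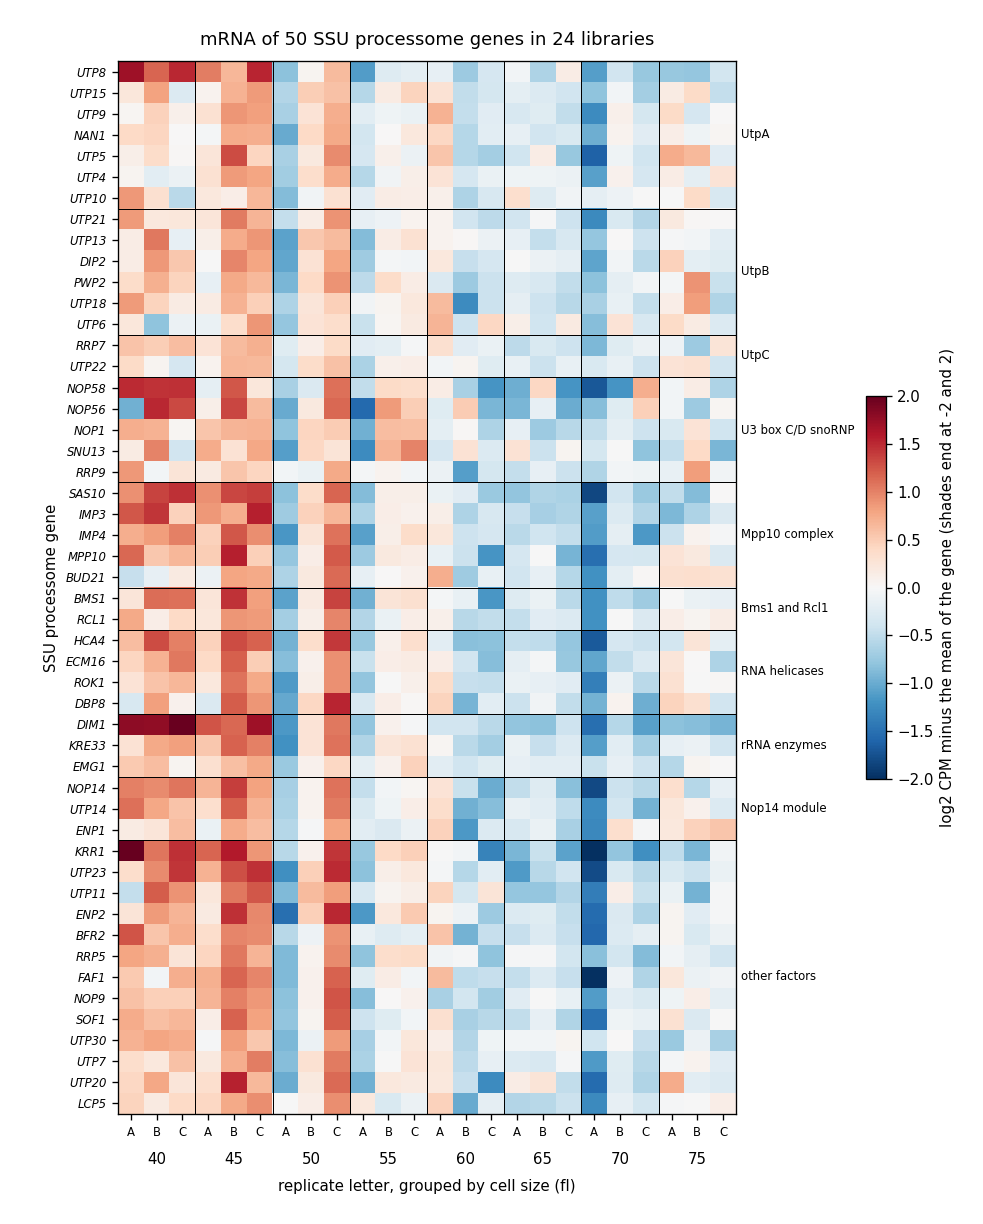
Log2 CPM of mRNA of the 50 counted SSU processome genes (rows, grouped by complex and ordered by slope) in 24 libraries (columns, replicates A, B and C of each size in fl), each minus the gene's own mean, with red for higher and blue for lower. Red fills most of 40 and 45 fl, the 50 fl and 70 fl libraries of replicate A are blue in most rows, and the 50 fl library of replicate C is red.

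The spread within a size was shared by the genes as well. For each library the median over the 50 genes was taken of the log2 level relative to the gene's mean over libraries. At 50 fl this median was -0.81 in replicate A, 0.19 in B and 0.92 in C, and at 70 fl it was -1.12, -0.19 and -0.44. At 40 fl it was 0.48, 0.70 and 0.55. The median over all counted genes, which the TMM scaling of each library holds near 0, stayed between -0.04 and 0.04 in all 24 libraries. The replicates of 50 fl thus lay further apart than the means of 50 and 40 fl did, at 0.10 and 0.58. Over the 24 libraries the correlation between the levels of 2 members had a median of 0.76 over 1225 pairs (all counted genes -0.0038), and for the deviations from the mean of each size it was 0.68 (all counted genes -0.0010). These correlations are descriptions, since all pairs share the same libraries and their scaling.

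**Figure D2:**
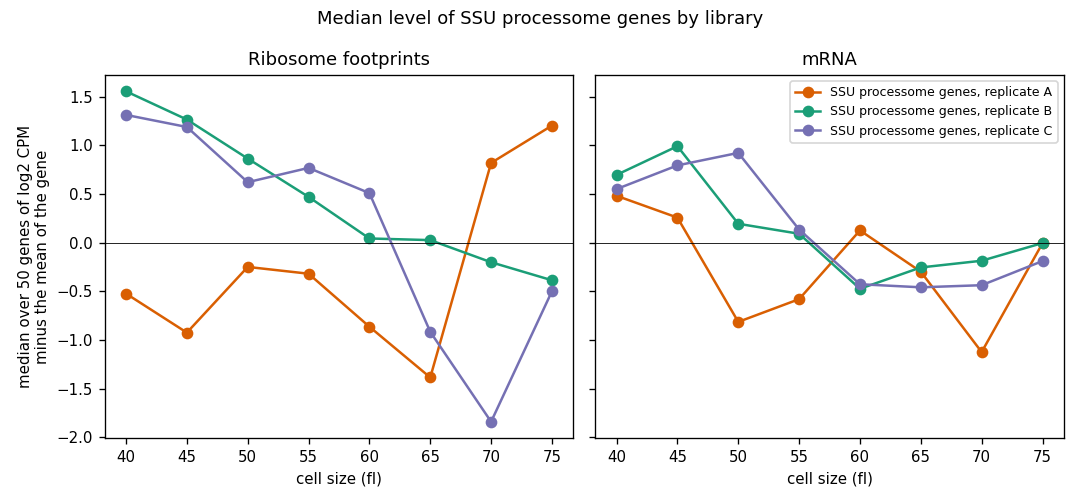
Median over the 50 SSU processome genes of log2 CPM relative to each gene's mean (vertical axis) against cell size in fl (horizontal axis), for footprints (left) and mRNA (right), with 1 line per replicate. Footprint lines B and C stand at -0.39 and -0.50 at 75 fl, against 1.55 and 1.31 at 40 fl, while line A is highest at 75 fl. In mRNA the 3 lines lie between -0.19 and -0.0043 at 75 fl, against 0.48 to 0.70 at 40 fl.

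UtpA, the complex of mostly WD-repeat proteins that binds the 5' external spacer first, had 4 of 7 genes that fell in mRNA (UTP8, UTP15, UTP9 and NAN1), with a median slope of -0.09. UTP8 fell under all of 41 alternative settings, UTP15 under 28, and UTP9 and NAN1 under 14 each. UTP8 (YGR128C, chromosome VII, 747950 to 750091 in R64) stood apart within the complex. Its mRNA gave 488, 336 and 429 CPM at 40 fl, 305, 238 and 432 at 45 fl, 85.5, 157 and 234 at 50 fl and 69.1, 125 and 132 at 55 fl in replicates A, B and C. In larger cells it gave 135, 91 and 119 CPM at 60 fl, 145, 98 and 166 at 65 fl, 70.1, 116 and 88.7 at 70 fl and 89.3, 88 and 117 at 75 fl. All 6 libraries of 40 and 45 fl lay above all 18 libraries of larger cells. The slope was -0.30 (SE 0.04, adjusted p 6.65e-06 by edgeR's quasi-likelihood test, all 3 replicates negative). UTP10, a large HEAT-repeat subunit, had no such course, with 168, 116 and 63.9 CPM at 40 fl, 108, 101 and 147 at 45 fl, 50.6, 88.3 and 115 at 50 fl and 78.9, 102 and 101 at 55 fl. From 60 fl on the values were 99.3, 60.1 and 74.3 CPM at 60 fl, 117, 77.4 and 87.8 at 65 fl, 81.8, 86.5 and 92.2 at 70 fl and 92.6, 121 and 74.5 at 75 fl. These sizes overlapped, and its slope of -0.05 (SE 0.03) did not pass (adjusted p 0.22, edgeR's quasi-likelihood test). UTP15, a WD-repeat subunit, fell with a slope of -0.10 (SE 0.04). Its mRNA levels were 136, 202 and 95.9 CPM at 40 fl, 122, 189 and 209 at 45 fl, 77.8, 164 and 175 at 50 fl and 78.3, 130 and 158 at 55 fl. Larger cells gave 143, 82.3 and 91.3 CPM at 60 fl, 101, 96.3 and 88.8 at 65 fl, 66.3, 112 and 72.4 at 70 fl and 130, 152 and 83.3 at 75 fl. Its sizes overlapped too, and its adjusted p was 0.0353 in edgeR's quasi-likelihood test.

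UtpB, a second early complex of WD-repeat proteins with the HAT-repeat protein Utp6, had 3 of 6 genes that fell (UTP21, UTP13 and DIP2) and a median slope of -0.10. UTP21 had the lowest p of UtpB in the F-test over sizes and gave 823, 525 and 536 CPM at 40 fl, 540, 932 and 730 at 45 fl, 327, 505 and 851 at 50 fl and 407, 424 and 476 at 55 fl. In the 4 larger sizes it stood at 478, 351 and 316 CPM at 60 fl, 348, 447 and 342 at 65 fl, 187, 368 and 302 at 70 fl and 520, 461 and 457 at 75 fl. Its 50 fl libraries of A and C, at 327 and 851 CPM, lay far apart. The slope was -0.13 (SE 0.04, adjusted p 0.00644, edgeR's quasi-likelihood test). UTP6 (YDR449C, chromosome IV, 1357580 to 1358902 in R64) had the slope closest to 0 of all 50. Its libraries gave 158, 77.5 and 124 CPM at 40 fl, 123, 172 and 249 at 45 fl, 79.1, 163 and 173 at 50 fl and 99.2, 139 and 154 at 55 fl. At larger sizes it gave 216, 101 and 180 CPM at 60 fl, 146, 102 and 154 at 65 fl, 74.7, 163 and 109 at 70 fl and 176, 152 and 112 at 75 fl. Every size overlapped with others, and the slope of -0.02 (SE 0.04) did not pass (adjusted p 0.702, edgeR's quasi-likelihood test). It was the only member whose slope was positive under any of 41 alternatives. Of UtpC, which contacts the pre-rRNA through Rrp7 and Utp22, RRP7 fell with a slope of -0.13 (SE 0.03). RRP7 mRNA gave 1048, 995 and 1090 CPM at 40 fl, 854, 1103 and 1154 at 45 fl, 601, 774 and 925 at 50 fl and 604, 620 and 697 at 55 fl. From 60 fl on the values were 886, 604 and 644 CPM at 60 fl, 494, 577 and 534 at 65 fl, 379, 600 and 650 at 70 fl and 659, 430 and 847 at 75 fl. UTP22 had a slope of -0.06 (SE 0.03), which did not pass.

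Among the U3 box C/D proteins 3 of 5 fell, NOP58, NOP56 and NOP1 (the methyltransferase fibrillarin), while SNU13 and the U3-specific RRP9 had slopes of -0.11 and -0.07 that did not pass. NOP58, a core protein that holds the snoRNA, gave 2550, 2467 and 2513 CPM at 40 fl, 804, 2148 and 1060 at 45 fl, 582, 741 and 1948 at 50 fl and 646, 1186 and 1160 at 55 fl. Larger cells gave 1011, 578 and 399 CPM at 60 fl, 460, 1206 and 402 at 65 fl, 281, 399 and 1502 at 70 fl and 876, 1012 and 589 at 75 fl in mRNA. The 3 libraries of 40 fl lay above all others, and within 70 fl replicate C was far above A and B. Its slope was -0.22 (SE 0.06, adjusted p 0.00305 in edgeR's quasi-likelihood test). The Mpp10 complex and its partners had 4 of 5 genes that fell, with a median slope of -0.20. SAS10 (YDL153C, chromosome IV, 181186 to 183018 in R64), also named Utp3, gave 2049, 2747 and 2968 CPM at 40 fl, 2042, 2729 and 2813 at 45 fl, 614, 1397 and 2422 at 50 fl and 593, 1168 and 1178 at 55 fl. In the 4 larger sizes it stood at 992, 921 and 644 CPM at 60 fl, 626, 713 and 697 at 65 fl, 307, 828 and 644 at 70 fl and 770, 592 and 1085 at 75 fl. Its slope was -0.30 (SE 0.04, adjusted p 1.27e-05, edgeR's quasi-likelihood test), and among the 18 libraries of larger cells 1, 50 fl replicate C, lay within the range of 40 and 45 fl. IMP3, which binds where U3 pairs with the pre-rRNA, gave 87.8, 99 and 50.7 CPM at 40 fl, 67.6, 61.4 and 109 at 45 fl, 22.5, 50.9 and 58.4 at 50 fl and 24.2, 40.4 and 39.1 at 55 fl. At larger sizes it gave 40.2, 24.1 and 29.4 CPM at 60 fl, 26.8, 23.4 and 24.3 at 65 fl, 17.3, 30.7 and 24.5 at 70 fl and 19.8, 24.1 and 30.2 at 75 fl. It fell with a slope of -0.28 (SE 0.04, adjusted p 5.78e-06, edgeR's quasi-likelihood test). BUD21, also named Utp16, had a slope of -0.04 (SE 0.04) that did not pass, and its mRNA gave 182, 224 and 284 CPM at 40 fl, 231, 434 and 422 at 45 fl, 163, 285 and 550 at 50 fl and 223, 253 and 266 at 55 fl. From 60 fl on the values were 414, 153 and 225 CPM at 60 fl, 192, 224 and 169 at 65 fl, 108, 219 and 253 at 70 fl and 311, 317 and 310 at 75 fl.

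BMS1, a GTPase, and RCL1, its partner, both fell, with slopes of -0.20 (SE 0.05) and -0.11 (SE 0.04). BMS1 mRNA gave 613, 1128 and 1118 CPM at 40 fl, 614, 1414 and 923 at 45 fl, 248, 591 and 1328 at 50 fl and 269, 625 and 650 at 55 fl. Larger cells gave 505, 471 and 233 CPM at 60 fl, 436, 475 and 358 at 65 fl, 226, 367 and 319 at 70 fl and 518, 474 and 466 at 75 fl. Replicate A was the lowest of the 3 at all of 40, 45, 50 and 55 fl. Of the helicases HCA4, ECM16 (Dhr1, which removes U3) and ROK1 fell, and DBP8 had a slope of -0.11 (SE 0.05) that did not pass. HCA4, a DEAD-box helicase also named Dbp4, gave 336, 538 and 440 CPM at 40 fl, 300, 541 and 495 at 45 fl, 114, 279 and 581 at 50 fl and 130, 236 and 278 at 55 fl. In the 4 larger sizes it stood at 189, 123 and 124 CPM at 60 fl, 157, 155 and 129 at 65 fl, 68.4, 174 and 162 at 70 fl and 170, 262 and 191 at 75 fl. Its slope of -0.23 (SE 0.05) had an adjusted p of 0.000623 in edgeR's quasi-likelihood test. In the Nop14 module NOP14 and UTP14, the activator of Dhr1, fell, and ENP1, which stays on the pre-40S particle into the cytoplasm, had a slope of -0.04 (SE 0.04) that did not pass. NOP14 gave 1759, 1697 and 1849 CPM at 40 fl, 1407, 2294 and 1536 at 45 fl, 555, 923 and 1865 at 50 fl and 633, 840 and 900 at 55 fl. At larger sizes it gave 1060, 645 and 442 CPM at 60 fl, 623, 737 and 489 at 65 fl, 252, 654 and 594 at 70 fl and 1106, 592 and 779 at 75 fl. ENP1 gave 183, 194 and 252 CPM at 40 fl, 149, 275 and 250 at 45 fl, 111, 162 and 282 at 50 fl and 142, 134 and 151 at 55 fl. From 60 fl on the values were 226, 73.5 and 135 CPM at 60 fl, 131, 149 and 105 at 65 fl, 67.1, 206 and 161 at 70 fl and 190, 225 and 240 at 75 fl. In ENP1 the 75 fl libraries lay within the range of the 40 and 45 fl libraries.

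All 3 rRNA enzymes fell, DIM1, KRE33 (a cytidine acetyltransferase) and EMG1 (a methyltransferase of 1 pseudouridine), and all 3 also differed across sizes. DIM1 (YPL266W, chromosome XVI, 39121 to 40077 in R64), the dimethylase of the 3' end of 18S rRNA, had the steepest slope of the 50. It gave 490, 487 and 560 CPM at 40 fl, 340, 314 and 457 at 45 fl, 64.1, 172 and 296 at 50 fl and 82.1, 151 and 140 at 55 fl. At the larger sizes it gave 109, 109 and 98.1 CPM at 60 fl, 81.8, 80.2 and 106 at 65 fl, 50.0, 95.3 and 66.5 at 70 fl and 80.7, 78.9 and 74.5 at 75 fl. The 6 libraries of 40 and 45 fl lay above the other 18, and the slope was -0.41 (SE 0.04, adjusted p 6.11e-08, edgeR's quasi-likelihood test). All 13 other assembly factors fell, among them the S1-domain protein RRP5, the WD-repeat proteins UTP7, SOF1 and ENP2, and the HEAT-repeat protein UTP20. KRR1 (YCL059C, chromosome III, 22429 to 23379 in R64), a KH-domain protein, was the steepest of them. Its mRNA gave 2481, 1012 and 1325 CPM at 40 fl, 1080, 1449 and 883 at 45 fl, 326, 512 and 1287 at 50 fl and 283, 633 and 667 at 55 fl. Larger cells gave 480, 465 and 190 CPM at 60 fl, 255, 352 and 229 at 65 fl, 98.8, 278 and 205 at 70 fl and 337, 256 and 456 at 75 fl. Of the 18 libraries of larger cells only 50 fl replicate C reached the range of 40 and 45 fl. The slope was -0.37 (SE 0.05, adjusted p 8.09e-06, edgeR's quasi-likelihood test). UTP30, which is not essential for growth, gave 80.3, 86.1 and 82.7 CPM at 40 fl, 49.1, 88.6 and 72 at 45 fl, 26.7, 46 and 89.8 at 50 fl and 31.4, 48 and 58.1 at 55 fl. In the 4 larger sizes it stood at 54.3, 33.2 and 46.7 CPM at 60 fl, 47.8, 47.9 and 51.6 at 65 fl, 37.7, 50.0 and 36.2 at 70 fl and 29.8, 46 and 31.7 at 75 fl. It fell with a slope of -0.15 (SE 0.04, adjusted p 0.00168, edgeR's quasi-likelihood test).

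**Figure D3:**
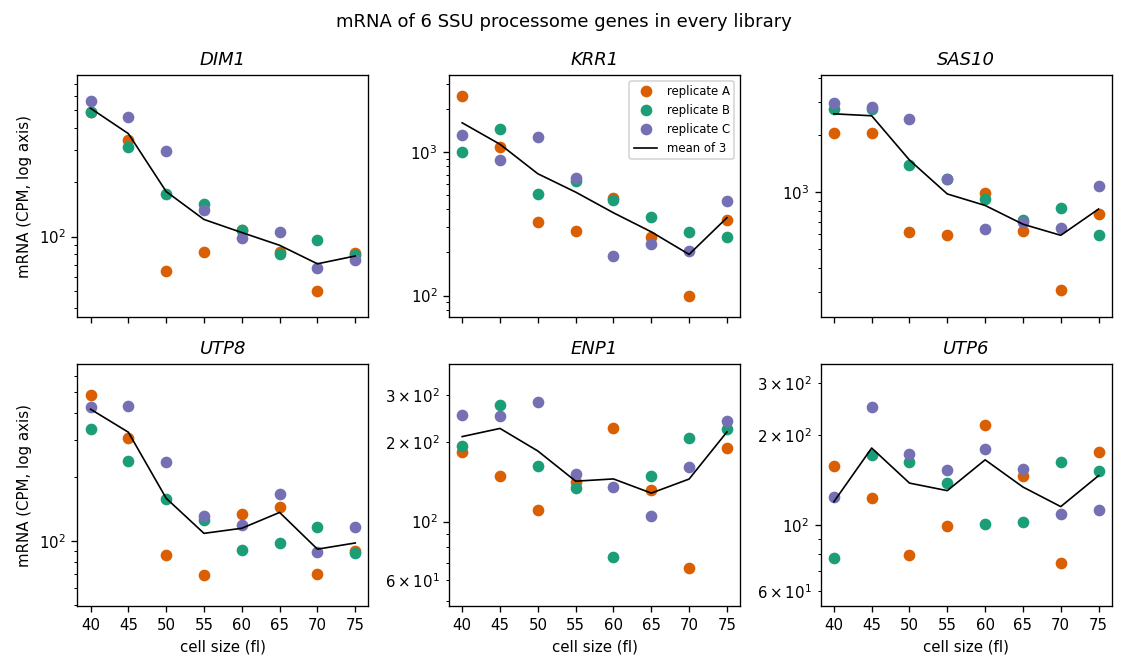
mRNA in CPM (vertical log axis) against cell size in fl (horizontal axis) for the 4 steepest members and 2 of the flattest, with 1 point per library and a line through the mean of 3. DIM1, KRR1, SAS10 and UTP8 are highest at 40 and 45 fl, while ENP1 and UTP6 overlap across sizes.

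The fall in mRNA was seen in each replicate by sign and in fewer genes by test. With a slope for each replicate, 43 of the 50 slopes were negative in A, 48 in B and 50 in C, with medians of -0.10, -0.15 and -0.19. Within a single replicate 5 members fell in A, 9 in B and 14 in C, and 0 rose in any. Of all counted genes 9.88% fell and 8.54% rose in A, 4.21% and 2.85% in B, and 6.27% and 4.18% in C. A test that the 3 slopes differ called 0 members (2 at an unadjusted p under 0.05, edgeR's quasi-likelihood test) and 0% of all counted genes (202 of 3301 unadjusted). This test was not run with another tool. Of the 38 genes that fell, 37 also did so without replicate A, 24 without B and 18 without C, and 15 did under all of the 41 alternatives. Of all counted genes 15.3% fell without A, 14.9% without B and 13.3% without C.

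In the authors' deposited table of mRNA with replicates pooled, all 51 ORFs had values, given as log2 relative to the gene over sizes. Their medians in the authors' deposited table were 0.57, 0.51, 0.04, -0.22, -0.42, -0.37, -0.71 and -0.02 from 40 to 75 fl. The medians over all ORFs with a value there were 0.0018, -0.30, -0.09, -0.07, -0.12, -0.0043, 0.15 and 0.06. NOC4 stood at 0.59 at 40 fl, -0.02 at 45, -0.18 at 50, -0.16 at 55, -0.33 at 60, -0.40 at 65, -0.13 at 70 and 0.34 at 75 fl in the authors' deposited table. At 40 fl 48 of the 51 ORFs were above 0 in that table, NOC4 among them. The lowest value lay at 70 fl in 41 ORFs, at 60 fl in 5, at 65 fl in 3, with NOC4, and at 75 fl in 2. No error can be given for these values.

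Over all 24 footprint libraries 0 of the 50 genes had a slope that passed by edgeR's quasi-likelihood test, where 7 had an unadjusted p under 0.05. Across sizes 0 differed, with 1 at an unadjusted p under 0.05. DESeq2 called 0 in both tests, and so did limma-voom. Among all counted genes 0% had a slope that passed and 0.333% differed across sizes, with 188 and 126 of the 3301 at an unadjusted p under 0.05. The median slope was -0.13 log2 per 5 fl for the SSU processome genes and -0.0015 for all counted genes. The replicates went in opposite directions. In the libraries labelled replicate A all 50 slopes were positive, with a median of 0.23, and 5 genes rose (1.39% of all counted genes rose and 1.06% fell). In replicate B 49 of 50 slopes were negative, with a median of -0.28, and 22 genes fell (5.03% of all counted genes fell and 3.36% rose). In replicate C 49 of 50 were negative, with a median of -0.29, and 15 fell (5.82% of all counted genes fell and 5.88% rose). A test that the 3 slopes differ called 41 of the 50 (45 at an unadjusted p under 0.05, edgeR's quasi-likelihood test), beside 19.4% of all counted genes (946 of 3301 unadjusted). The 50 genes together took 2.01% of the footprint reads in replicate A at 75 fl (95% Wilson interval 1.99 to 2.04%) and 0.414% at 40 fl (0.403 to 0.425%). In B and C the shares were 0.601 and 0.436% at 75 fl and 2.11 and 2.15% at 40 fl. Such intervals, and the limits of a count of 0 below, cover counting error only.

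Without replicate A, SSU processome footprints fell with size. Of the 50 genes 45 fell and 0 rose (15.1% and 9% of all counted genes), 35 differed across sizes (18.8% of all counted genes), and 49 slopes were negative. The median slope was -0.31, against -0.03 over all counted genes. Without the 6 shallow libraries as well, 49 of 50 fell and 0 rose (23% and 19.9% of all counted genes) and 48 differed across sizes (45.2%). The Mpp10 complex, BMS1 and RCL1, the helicases, the Nop14 module and the other assembly factors had all of their counted members among the 45. UtpA had 6 of 7, UtpB 5 of 6, the U3 box C/D proteins 4 of 5, the rRNA enzymes 2 of 3 and UtpC 1 of 2. The genes that did not pass were UTP9, UTP13, UTP22, EMG1 and NOP58. IMP3 and HCA4 had the steepest footprint slopes without replicate A, -0.45 (SE 0.08) and -0.45 (SE 0.07), and with it -0.18 (SE 0.09) and -0.16 (SE 0.09).

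**Figure D4:**
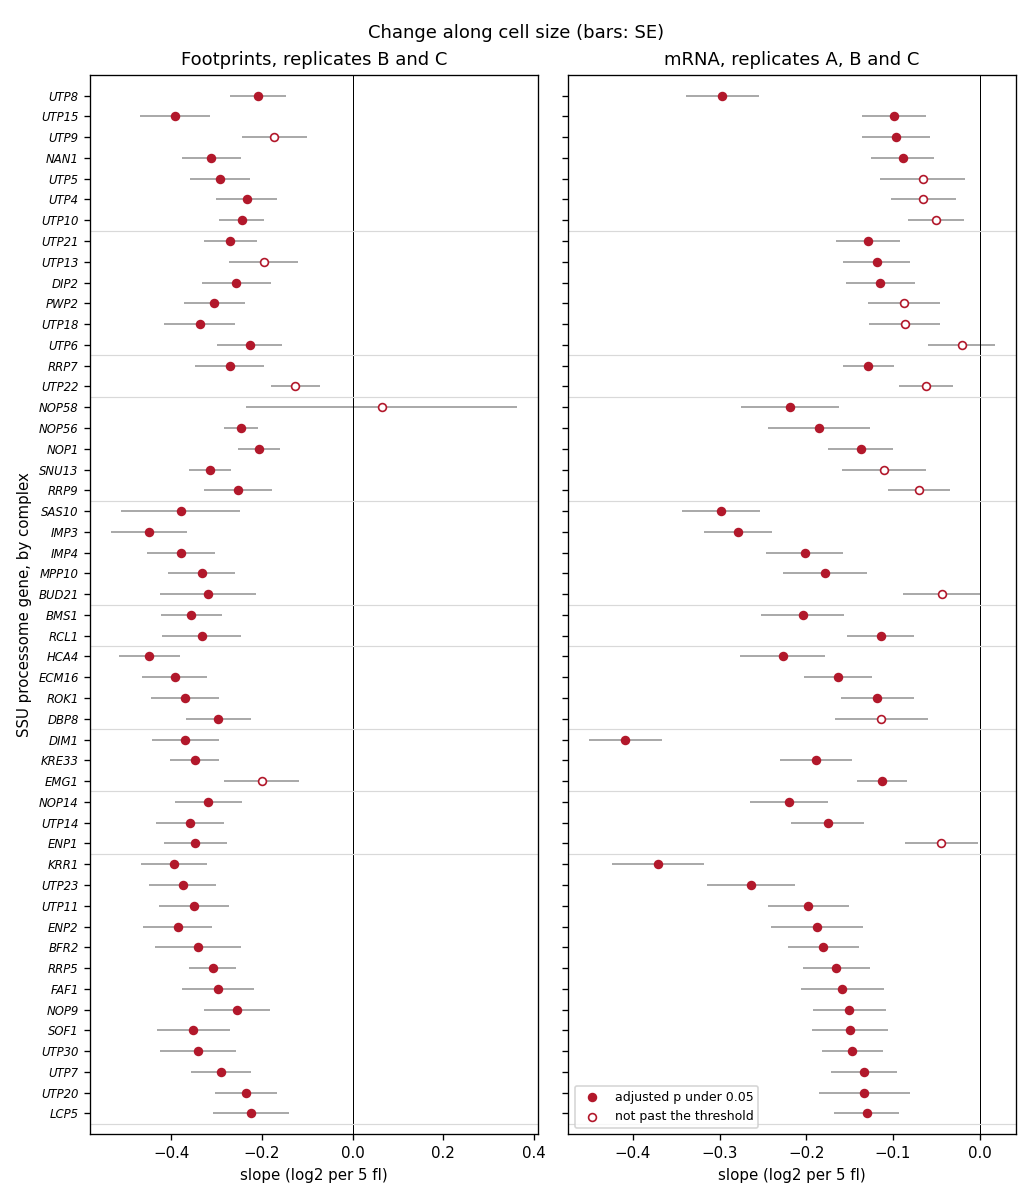
Slope along size in log2 per 5 fl (horizontal axis, bars are SE) of the 50 SSU processome genes (rows, grouped by complex), for footprints of replicates B and C (left) and mRNA of all replicates (right), with filled points past an adjusted p of 0.05. All mRNA slopes and all footprint slopes but that of NOP58 lie below 0, and 45 footprint and 38 mRNA slopes are filled.

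SNU13, UTP15 and UTP30 had the smallest p of the footprint slope over all 24 libraries. SNU13, the small k-turn binding protein, gave 364, 1549 and 990 CPM at 40 fl, 295, 823 and 755 at 45 fl, 373, 798 and 619 at 50 fl and 452, 854 and 513 at 55 fl in footprints. At larger sizes it gave 241, 578 and 261 CPM at 60 fl, 303, 465 and 127 at 65 fl, 635, 389 and 326 at 70 fl and 665, 339 and 231 at 75 fl. In B the level at 40 fl was the highest and that at 75 fl the lowest, and in A the 2 highest levels were those of 70 and 75 fl. Without replicate A the slope was -0.31 (SE 0.05, adjusted p 4.02e-06, edgeR's quasi-likelihood test), and with it -0.17 (SE 0.05). UTP15 gave 84.7, 347 and 275 CPM at 40 fl, 61.2, 225 and 264 at 45 fl, 74.8, 99.7 and 495 at 50 fl and 64.1, 138 and 130 at 55 fl. From 60 fl on the values were 43.4, 120 and 26.1 CPM at 60 fl, 56.9, 58.1 and 0 at 65 fl, 117, 94.8 and 0 at 70 fl and 231, 78.8 and 54.8 at 75 fl. The 0 CPM of the 65 and 70 fl libraries of replicate C are counts of 0 in shallow libraries. There a count of 0 allows up to 114 and 53.9 CPM of the library total, before TMM scaling. Its slope without replicate A was -0.39 (SE 0.08, adjusted p 0.000191, edgeR's quasi-likelihood test), and with it -0.20 (SE 0.08). UTP30 gave 20.7, 80.7 and 75.4 CPM at 40 fl, 11.5, 46.8 and 49.6 at 45 fl, 19.8, 59.8 and 0 at 50 fl and 23.5, 26.8 and 27.4 at 55 fl. Larger cells gave 28.9, 16.9 and 65.3 CPM at 60 fl, 7.73, 0 and 42.3 at 65 fl, 14.6, 23.5 and 81.5 at 70 fl and 43.8, 13.4 and 8.67 at 75 fl, with a slope of -0.34 (SE 0.08) without replicate A and of -0.18 (SE 0.07) with it. Counts of 0 in 50 fl C and 65 fl B allow up to 55.4 and 60.6 CPM there before TMM scaling, above most other values of the gene.

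NOP58 was the exception in the sign of the footprint slope. Its footprints gave 627, 1491 and 1545 CPM at 40 fl, 476, 1004 and 1115 at 45 fl, 723, 678 and 3171 at 50 fl and 701, 932 and 1121 at 55 fl. In the 4 larger sizes it stood at 28453, 841 and 27880 CPM at 60 fl, 410, 1123 and 676 at 65 fl, 38664, 1128 and 510 at 70 fl and 1507, 1710 and 595 at 75 fl. The 3 highest libraries, A and C of 60 fl and A of 70 fl, are those in which FAR11 exceeded 5% of the reads. SAS10 footprints were also highest in these libraries, with 395 CPM in 60 fl A, 862 in 60 fl C and 620 in 70 fl A. The slope of SAS10 without replicate A, which passed, includes 60 fl C. The part of these libraries in the results was not tested beyond leaving them out. Without replicate A the slope of NOP58 was 0.06 with an SE of 0.30, and with it 0.50 (SE 0.25). DIM1 footprints gave 31, 293 and 237 CPM at 40 fl, 30.2, 194 and 143 at 45 fl, 54.2, 140 and 77.4 at 50 fl and 26.6, 106 and 137 at 55 fl. At larger sizes it gave 28.9, 65.6 and 183 CPM at 60 fl, 45.7, 116 and 0 at 65 fl, 212, 70.5 and 0 at 70 fl and 171, 45 and 41.5 at 75 fl. UTP8 footprints gave 80.9, 282 and 221 CPM at 40 fl, 67.4, 213 and 201 at 45 fl, 101, 79.8 and 61.9 at 50 fl and 67.2, 134 and 167 at 55 fl. From 60 fl on the values were 48.2, 100 and 104 CPM at 60 fl, 30.2, 136 and 42.3 at 65 fl, 146, 93.3 and 102 at 70 fl and 239, 80.9 and 120 at 75 fl. Both fell without replicate A, by -0.37 (SE 0.07) for DIM1 and -0.21 (SE 0.06) for UTP8. With it the slopes were -0.13 (SE 0.08) and -0.08 (SE 0.06), and in both the A libraries of 70 and 75 fl were the highest of that replicate.

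Translational efficiency, the footprint level relative to the mRNA level, was tested through the interaction between the assay and the cell size. Over all 48 libraries 0 of the 50 genes had a slope that passed by edgeR's quasi-likelihood test (4 at an unadjusted p under 0.05) and 0 differed across sizes (2 at an unadjusted p under 0.05). Of all counted genes 0% and 0.333% passed, and 416 and 189 of the 3301 had an unadjusted p under 0.05. DESeq2 called 1 member in each of these tests, beside 118 and 36 of the 3301 counted genes, and limma-voom called 0. NOP58, UTP8 and DIM1 had the smallest p of the slope, with 0.72, 0.22 and 0.27 log2 per 5 fl, and none of the 3 passed in edgeR. In DESeq2 the slope of NOP58 did pass. The median slope of the members was 0.03. Without replicate A it was -0.14, against -0.04 over all counted genes, and 47 of 50 slopes were negative. In that fit 1 member fell and 0 rose, beside 0.697% and 0.182% of all counted genes. Across sizes 0 members differed (12 at an unadjusted p under 0.05), beside 1.06% of all counted genes (491 of 3301 unadjusted). Without the 6 shallow libraries as well, 1 fell, 0 rose and 1 differed across sizes, beside 0.666%, 0.212% and 0.424% of all counted genes. The member that fell without replicate A was ENP1, with a slope of -0.30 (SE 0.08, adjusted p 0.0414, edgeR's quasi-likelihood test). ENP1 footprints gave 44.2, 272 and 231 CPM at 40 fl, 42.6, 218 and 197 at 45 fl, 81.7, 160 and 30.9 at 50 fl and 59.4, 105 and 136 at 55 fl. Larger cells gave 67.4, 66.9 and 118 CPM at 60 fl, 26.7, 19.4 and 42.3 at 65 fl, 175, 82.3 and 20.4 at 70 fl and 188, 50.7 and 58.4 at 75 fl, so that in replicates B and C the 40 and 45 fl libraries were the highest, while its mRNA averaged 218 CPM at 75 fl and 209 CPM at 40 fl.

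Levels per length were compared between members as CPM per kb of coding length, as medians over the 24 mRNA libraries and over the 10 footprint libraries of B and C with at least 150000 reads. Within UtpA the footprint levels lay between 54.2 (UTP9) and 93.6 CPM per kb (NAN1), which is 1.73-fold, and the mRNA levels between 17.4 (UTP10) and 670 CPM per kb (UTP9), which is 38.5-fold. UtpB spanned 1.99-fold in footprints and 6.35-fold in mRNA, and the Mpp10 complex 1.92-fold and 9.45-fold. In UtpA the gene with the most mRNA, UTP9, had the fewest footprints. The SD of the log2 level between subunits of UtpA, over the 10 pools, was 0.16 to 0.62 in footprints and 1.60 to 1.99 in mRNA, lower in footprints in 10 of 10 pools. It was also lower in 10 of 10 pools for UtpB, the Mpp10 complex and the 13 other assembly factors, in 6 of 10 for the U3 box C/D proteins and in 9 of 10 over all 50 genes. Over all counted genes with a length it was lower in 0 of 10 (medians 2.23 in footprints and 1.99 in mRNA). These spreads were not tested. The U3 box C/D proteins spanned 44.5-fold in footprints and 32-fold in mRNA. SNU13, NOP1, NOP58 and NOP56, which serve all box C/D snoRNPs, had 1750, 933, 728 and 694 CPM per kb in footprints, and RRP9, which serves U3 alone, had 39.3. The median of the 50 genes was 70.4 CPM per kb in footprints, against 41.3 for all counted genes with a length, and FAF1 was lowest with 31.9.

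**Figure D5:**
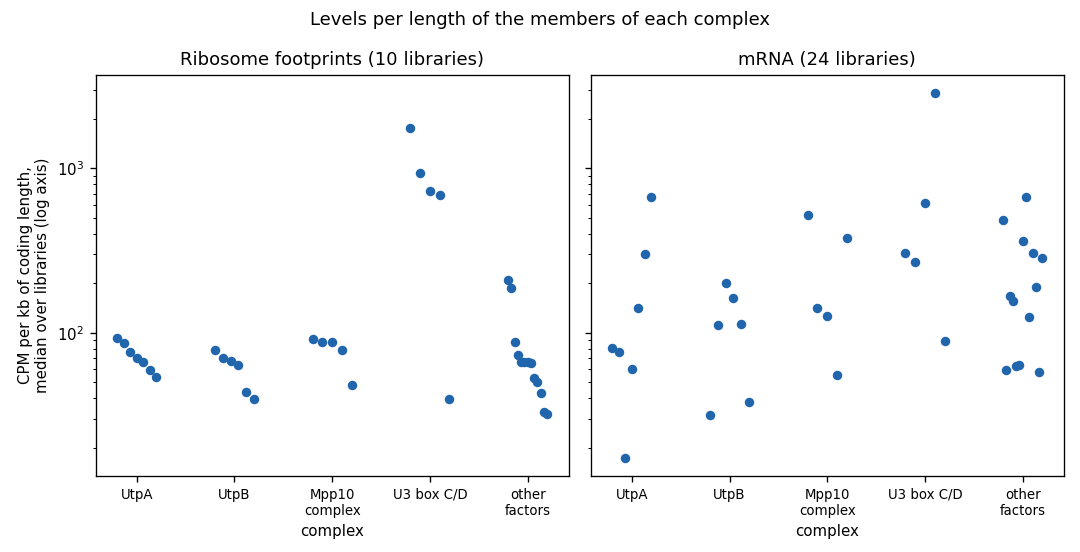
CPM per kb of coding length (vertical log axis) of each member, as the median over 10 footprint libraries of replicates B and C (left) and over 24 mRNA libraries (right), by complex. Within a complex the genes have the same horizontal order in both panels; footprints of UtpA stay between 54.2 and 93.6 while its mRNA spans 17.4 to 670.

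Other genes of ribosome synthesis, from lists of names, were set beside the SSU processome. Of 70 large subunit assembly factors 63 fell in mRNA and 0 rose, with a median slope of -0.19, and of 40 other 40S maturation factors 28 fell and 0 rose, with a median of -0.14. TIF6 and RSA3, which act on the large subunit, had slopes of -0.34 (SE 0.04) and -0.29 (SE 0.04), and GAR1 and NHP2, of the H/ACA snoRNPs that make pseudouridine, -0.26 (SE 0.04) and -0.23 (SE 0.04). Of 16 counted genes of the nuclear exosome and TRAMP 11 fell and 0 rose, with RRP46 at -0.21 (SE 0.04) and MPP6 at -0.19 (SE 0.04). Of 13 counted genes of RNA polymerase I and its factors 7 fell and 0 rose, with the initiation factor RRN3 at -0.24 (SE 0.04) and the subunit RPA12 at -0.22 (SE 0.04). Of the 56 small subunit ribosomal protein (RPS) genes 0 fell and 13 rose. In edgeR 17 of them, and 1637 of the 3301 counted genes, had an unadjusted p under 0.05 in either direction. RPS4A had a slope of 0.17 (SE 0.03) and RPS4B of 0.16 (SE 0.03), and they are near-identical copies whose reads may be split between them. The 13 of 56 stand beside the 19.4% of all counted genes that rose, a similar share. The RPS genes had a median mRNA slope of 0.03. In footprints 30 of them rose without replicate A, where 9% of all counted genes did, and 0 rose with it (0 at an unadjusted p under 0.05). Of 14 counted growth regulators 3 fell (TOD6, a repressor of ribosome assembly genes, TPK3, a catalytic subunit of protein kinase A, and IFH1, a coactivator of ribosomal protein genes) and 5 rose (ABF1, GCR1, RAS2, TOR1 and RAP1). Of all counted genes 22.1% fell and 19.4% rose, so that the 3 of 14 that fell are a similar share. The slopes of TOD6, TPK3 and IFH1 were -0.16 (SE 0.05), -0.14 (SE 0.03) and -0.13 (SE 0.05). Those of ABF1, a general regulatory factor, and GCR1, an activator of glycolytic genes, were 0.29 (SE 0.04) and 0.19 (SE 0.03), and RAS2, TOR1 and RAP1 had 0.09 (SE 0.04), 0.08 (SE 0.02) and 0.07 (SE 0.03). By size, the mean over replicates of the median mRNA level of the large subunit factors, relative to each gene's mean, was 0.73, 0.83, 0.17, -0.10, -0.28, -0.49, -0.69 and -0.13 from 40 to 75 fl. For the SSU processome it was 0.58, 0.68, 0.10, -0.12, -0.26, -0.34, -0.58 and -0.07.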

How the data were processed

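Ribosome footprints and poly(A) mRNA were measured in the same 24 pools of cells. Per the submitters' processing notes, reads were handled with RSEM 1.2.20, TopHat2 2.1.0, Bowtie 1.1.2, SAMtools 1.3-1, cutadapt 1.8 and bcl2fastq 2.17.1.14 on build R64. Their settings are not given in the sources used here. The authors deposited whole-number counts per ORF and library, a table of log2 levels per library, and a table of log2 mRNA values with replicates pooled, relative to each ORF's mean over sizes. Which count table held which assay is not in its header and was settled by comparison with the log2 table. There were 0 columns of other samples. The 50 genes and all lists were chosen with earlier results of these data known.

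Counts were fitted with edgeR 4.0.16 (R 4.3.3), as robust quasi-likelihood models with TMM factors within each assay, with p-values adjusted by Benjamini-Hochberg over all counted genes at a threshold of 0.05. Slopes are per 5 fl. Log2 CPM used a prior count of 2. Alternatives used DESeq2 1.42.0, limma 3.58.1 (voom), other filters and scalings, and left out replicates, sizes or libraries. Leaving out single libraries, the FAR11-rich libraries, or the shallow libraries (under 150000 reads) with replicate A, and fitting a slope per replicate, were chosen after seeing the data. Summaries and plots used Python 3.11.15, numpy 2.4.6, pandas 2.3.3 and matplotlib 3.10.9. The fits were tested on simulated counts drawn independently for each gene. Such counts hold no deviation shared by the genes of a library, so they cannot show how the fits behave where there is one.

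Genes with values at every size were the 8 extremes of the mRNA slope, the smallest p across sizes in each complex, and the 3 smallest p of the footprint and of the efficiency slope. Outside that rule, single values of other members were given where a count or level was described, chosen after their values were seen. Of the other lists the 2 genes with the smallest p were named, and of the growth regulators all that passed. Whether a letter pairs libraries was looked at through deviations from size means. Footprints and mRNA of 1 pool had correlations of -0.24 to 0.57 (mean 0.11, above 0.1 in 13 of 24 pools). Libraries of 1 letter at 2 sizes had -0.52 to 0.75 in mRNA (mean 0.05) and -0.85 to 0.78 in footprints (mean 0.03). These means cannot exclude a pairing, since values of both signs cancel in them. The main models held no replicate block, and fits with a block are given below. Replicates are separate pools of 1 strain. The p-values of steps and of tests across sizes measure the spread between pools of a size. Those of slopes also take in departures of the sizes from a straight line.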

Additional observations from a re-analysis of the deposited data

Results flagged for a closer look

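The footprint slopes of 41 of the 50 SSU processome genes differed between the replicates (edgeR's quasi-likelihood test of the difference, adjusted p under 0.05), beside 19.4% of all counted genes. The median slope was 0.23 log2 per 5 fl in replicate A, -0.28 in B and -0.29 in C. In mRNA of the same pools the medians were -0.10, -0.15 and -0.19. By the same test 0 of the 50 genes differed (2 at an unadjusted p under 0.05, beside 202 of the 3301 counted genes). The cause was not tested.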

How the results depend on the processing

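The count of 38 genes that fell in mRNA was 18 to 41 when a replicate or library was left out. It was 18 without replicate C and 41 without 50 fl replicate A, where 13.3% and 23.1% of all counted genes fell. In DESeq2 it was 39 (23.3% of all counted genes) and in limma-voom 34 (20.3%). The median mRNA slope of -0.14 was -0.16 without replicate A and -0.11 without C, and -0.20 without 75 fl. UTP6 had -0.040 without replicate A but 0.0271 without C, 0.0108 without 45 fl and 0.00678 without 45 fl replicate C. The count of 21 across sizes was 4 to 37 over replicates left out. It was 4 without B, 4 without C and 37 without A, where 6.69%, 3.33% and 24.9% of all counted genes passed. With single libraries left out it was 9 without 45 fl replicate B (23.5% of all counted genes) and 12 without 45 fl replicate C (19.8%). It was 13 without 65 fl replicate C (20.2%) and 34 without 50 fl replicate A (28.1%). It was 32 in DESeq2 (41.9% of all counted genes), 8 without 40 fl (13.7%), 8 without 45 fl (17.6%), 32 without 50 fl (30.4%), 11 without 65 fl (17%) and 12 without 70 fl (20.2%).

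For footprints the count across sizes was 0 to 35 over replicates left out, 48 without replicate A and the shallow libraries, and 1 without 70 fl or without any of 60 fl B, 70 fl A and 70 fl C. Of all counted genes 18.8% passed without A and 45.2% without A and the shallow libraries. Without 70 fl 20 of 3299 genes passed, and without 60 fl B, 70 fl A or 70 fl C 19, 19 and 14 of 3301. The count that fell was 0 to 45, with 45 without A (15.1% of all counted genes), and 49 without replicate A and the shallow libraries (23%). The median slope was -0.31 without A and -0.0440 without B. For efficiency, the count across sizes was 0 to 1 over replicates or pools left out, and 1 in DESeq2, without 70 fl, and without A and the shallow libraries. In DESeq2, without 70 fl, and without A and the shallow libraries 36, 20 and 14 of the 3301 counted genes passed. The count that fell was 0 to 1, with 1 without A (0.697% of all counted genes) and 1 without A and the shallow libraries (0.666%). In DESeq2 1 member rose, beside 59 of the 3301 counted genes. The median efficiency slope of 0.03 was -0.14 without A, 0.0771 without B, -0.0024 without the FAR11-rich libraries, -0.13 without A and the shallow libraries and -0.03 without the 75 fl pool of replicate A. The cause of these moves was not tested.

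With a replicate block 35 genes fell in mRNA (21.8% of all counted genes), 22 differed across sizes (27.5%) and the median slope was -0.13. Footprints and efficiency gave 0 calls among the members with a block, with medians of -0.08 and 0.07 (0.02 with a block by pool). Counts of 0 in shallow footprint libraries limit what can be seen there. Promoter motifs and sequences were not analysed here.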
